A study of Mus musculus with 24 samples.

Results

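The libraries described here compare CD8 T cells taken from cultures that had received a TLR7 agonist together with antigen (TLR7 libraries, 4) with CD8 T cells from cultures that had received antigen alone (OVA libraries, 4), both after 72 h. They are 8 of the 24 RNA-seq libraries of the study, which also holds TLR2 agonist cultures at 72 h and all 3 treatments at 24 h, with 4 libraries in each of 6 groups. Every group, controls included, shares the OT-1 transgene, a T cell receptor on CD8 T cells that recognises a peptide of ovalbumin. Whole splenocytes were cultured with the peptide at 2 µg/mL, and the agonist went in 1 h before it. The labels say TLR7 agonist without naming the compound, and the protocol lists 2 that act on this receptor, gardiquimod at 3 µg/mL and R848 at 10 µg/mL. CD8 T cells were then taken by immunomagnetic negative selection, so what the agonist did to the other spleen cells in the dish is also part of the treatment. The labels do not say whether the replicates came from separate mice or cultures. The p-values therefore measure the spread between libraries, which may be technical. For single genes that spread was estimated over all 24 libraries, not only the 8 compared.

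TLR7 is an endosomal receptor for single-stranded RNA that signals through the adaptor MyD88 to NF-kB and interferon regulatory factors, and it is best known in plasmacytoid dendritic cells, B cells and macrophages. A CD8 T cell that meets its peptide passes through an early wave of TCR-induced transcription factors, gains the high-affinity IL-2 receptor and the cytotoxic programme, and also puts up inhibitory receptors such as PD-1, the product of Pdcd1. The question the comparison addresses is how a TLR7 agonist given with antigen changes that programme once the cells have expanded.

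Levels are given as CPM (counts scaled to TMM-normalised library size) in the order of replicates 1 to 4, from expected counts. The 8 libraries totalled 10506711 to 25921016 counts, at which 3 counts equal 0.116 to 0.286 CPM. All 13 CD8 T cell markers, among them Cd3e, Cd8a and Trac, stood at 5 CPM or more in every one of the 8 libraries. None of the 13 passed the test between the groups, although 4 were lower in every TLR7 library than in any OVA library and 0 higher. The labelled cell type was present throughout. Cd4, the marker of the other main T cell lineage, was at 0.570, 0, 0.135 and 0.455 CPM in the TLR7 libraries, against 0.252, 0.127, 0.501 and 0.359 CPM in the OVA libraries. The TLR7 libraries lay close together, with a median correlation to their own group of 0.98 to 0.984, while the OVA libraries were spread out, with medians of 0.952, 0.965, 0.945 and 0.952. OVA replicate 1 correlated with the TLR7 libraries at a median of 0.98, as closely as they did with each other, against 0.96, 0.93 and 0.944 for OVA replicates 2, 3 and 4. OVA replicate 4 lay between the 24 h and 72 h libraries on the first principal component of all 24, at -1.2 where the TLR7 libraries ran from -90.5 to -76.4 and the other OVA libraries from -87.6 to -56.5. OVA replicate 3 held the most macrophage, neutrophil and stromal transcripts of the 8. Whether a label or a culture was exchanged was not tested, and the labels are used as given, on which the direction of each TLR7 against OVA value rests. Results are therefore given with all 8 libraries and, for part of the genes, without these OVA replicates. At 24 h, OVA replicates 1 and 3 (-20.5 and -12.5) and TLR7 replicates 3 and 4 (-14 and -15.2) also lay between the times on that component. Every value at 24 h, and every difference between the times, rests on groups mixed in this way.

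With the agonist, 527 of 14560 genes tested differed (3.62% of genes; edgeR quasi-likelihood test, adjusted p under 0.05): 60 were higher (0.412%) and 467 lower (3.21%). At a change of 2-fold or more, 33 were higher (0.227%) and 336 lower (2.31%). Of the 527, 363 showed no overlap between the 4 TLR7 and the 4 OVA libraries, 41 with TLR7 above and 322 with TLR7 below, whereas over all genes tested 3.41% had every TLR7 library above and 5.29% every TLR7 library below. The median log2 fold change of all genes was -0.08, and 41.5% of them had a positive value. Counts of signs within the lists stand against that share. The counts of list members called, given list by list, stand against these shares of 0.412% higher and 3.21% lower. In bulk RNA, fewer cells of a type and less RNA per cell cannot be told apart.

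The number of calls changed with the libraries that entered. In 461 of the 467 genes that fell, the standard deviation of CPM was smaller among the TLR7 libraries than among the OVA libraries. That deviation tends to scale with the mean, so most genes picked as lower with TLR7 would show this in any case. The count therefore does not compare the relative spread of the groups. Among the same 467, OVA replicate 1 was the lowest OVA library in 402, and among the 60 that rose it was the highest OVA library in 58, so it stood nearest the TLR7 libraries in both directions. Leaving it out brought the count to 1370 (492 higher, 878 lower), which held 526 of the 527. That setting removes the OVA library nearest the TLR7 level. Larger changes, smaller p-values or more calls without it, here and for the genes below, therefore add no support. Leaving out the 5 libraries of the series with under 60% of the median total, TLR7 replicates 1 and 2 among them, gave 0 with edgeR, with 1326 genes at an unadjusted p under 0.05. Leaving out OVA replicate 2, 3 or 4 gave 308, 278 and 214, and leaving out TLR7 replicate 1, 2 or 4 gave 100, 133 and 92. Fitted on only the 8 libraries compared, 29 genes passed (1 higher, 28 lower). Without OVA replicates 3 and 4 together, 11 genes passed, all lower with TLR7 and all among the 527. That setting leaves OVA replicates 1 and 2, of which replicate 1 stood nearest the TLR7 libraries. A call lost there therefore does not show that a gene was unchanged. In that setting 522 of the 527 had the same sign, with a median ratio of the new to the old log2 fold change of 0.758. Of the 93 genes named by rule, 72, 67, 20 and 74 lost their call without TLR7 replicate 1, 2, 3 or 4, and 1, 34, 42 and 52 without OVA replicate 1, 2, 3 or 4. Without OVA replicates 3 and 4 together 3 of the 93 kept their call, Bcl2l11, Perp and Ifi203. Without the shallow libraries 0 did. A gene printed below without these settings is not to be taken as holding in them.

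**Figure D1:**
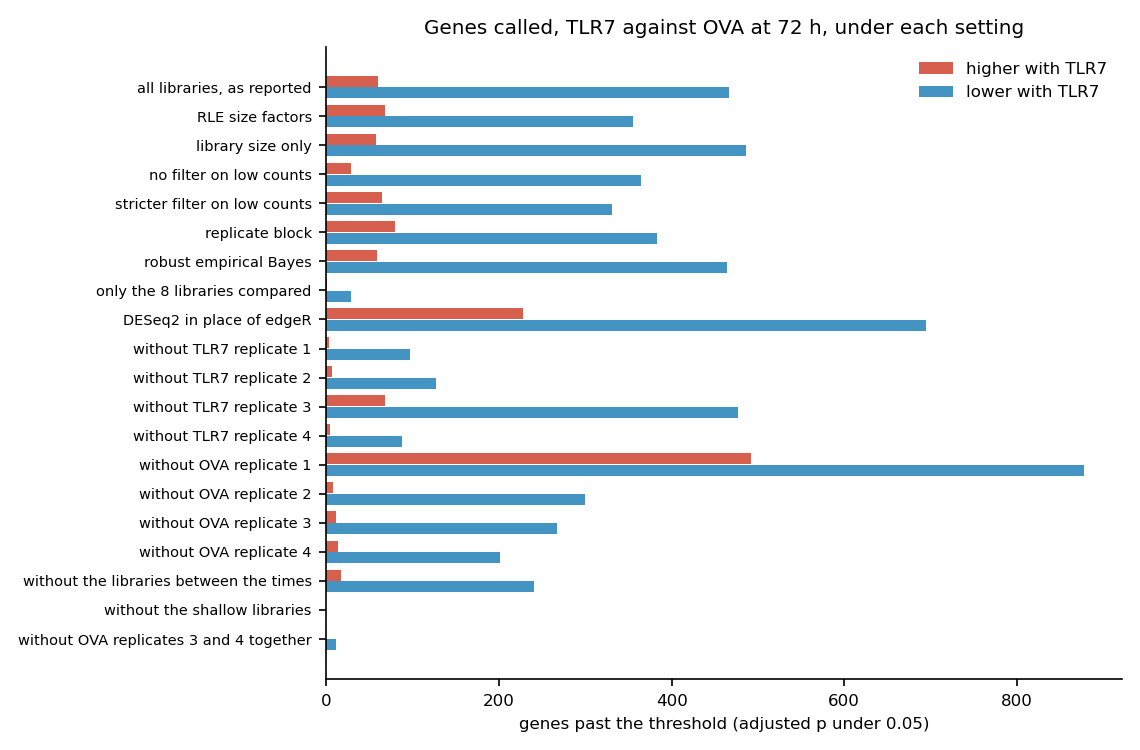
Number of genes past the threshold (x axis) that were higher or lower with TLR7 at 72 h, for the fit as reported and for each alternative (y axis). The count ran from 0 without the 5 shallow libraries to 1370 without OVA replicate 1, and more genes were lower than higher in each setting that made any call.

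Inhibitory receptors did not move as 1 group. Of the 14 tested, 2 fell and 1 rose, with a list median of -0.81. That median was -0.48 without OVA replicate 3, -0.49 without OVA replicate 4, -0.18 without both and -0.29 under the stricter filter, which leaves 12 of the 14. Pdcd1, which encodes PD-1 (ENSMUSG00000026285, chr1:94038305-94052553, GRCm38), stood at 20.9, 34.3, 57.5 and 45.8 CPM in the TLR7 libraries, against 147, 203, 123 and 190.5 CPM in the OVA libraries. TLR7 replicate 1 was the lowest of the 8 and no TLR7 library reached the OVA range (log2 fold change -2.06, SE 0.43, adjusted p = 0.00999, edgeR). Without OVA replicates 3 and 4 its log2 fold change was as large but no longer past the threshold (-2.12, adjusted p = 0.0944). Dropping 1 library ended the call for TLR7 replicate 1 (adjusted p = 0.0668) and for TLR7 replicate 2 (0.051), as did leaving out the 5 shallow libraries (0.334). Cd160, a receptor for the TNF receptor family member HVEM (chr3:96798763-96829351), was at 8.17, 11.3, 24.4 and 14.3 CPM in the TLR7 libraries, against 27.9, 67.7, 29.9 and 55.8 CPM in the OVA libraries. Every TLR7 library was below every OVA library (log2 fold change -1.63, SE 0.40, adjusted p = 0.0262).

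Lilrb4a, an inhibitory leukocyte Ig-like receptor (chr10:51480612-51496613), moved the other way. It was at 47.9, 40.9, 34.1 and 34.3 CPM in the TLR7 libraries, against 26.5, 10.7, 11.1 and 10.7 CPM in the OVA libraries. All 4 TLR7 libraries were above the OVA libraries, of which replicate 1 was nearest (log2 fold change 1.41, SE 0.35, adjusted p = 0.0275, edgeR), and without that replicate the log2 fold change was 1.93. A second gene of the family, Lilr4b, showed 69.02, 63.5, 48.7 and 46.02 CPM in the TLR7 libraries and 34.5, 9.97, 12.7 and 5.98 CPM in the OVA libraries, again with no overlap (log2 fold change 1.84, SE 0.51, adjusted p = 0.0472). The paralogues are close enough in sequence that reads may have been shared between them. Btla, which binds the same partner as CD160, was at 31.7, 39.6, 43.8 and 44.2 CPM in the TLR7 libraries and 43.6, 86.9, 58.6 and 162 CPM in the OVA libraries, overlapping at OVA replicate 1 (-1.14, adjusted p = 0.0613). Lag3 (0.35, adjusted p = 0.598), Ctla4 (0.44, adjusted p = 0.705), Tigit (0.14, adjusted p = 0.87) and Havcr2, encoding TIM-3 (0.24, adjusted p = 0.795), did not pass.

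Among the B7 family ligands, Cd86, which engages CD28 and CTLA-4 and is otherwise a gene of antigen-presenting cells, was the only 1 of 8 to pass, at 0.0949, 0.413, 0.314 and 0.152 CPM in the TLR7 libraries, against 0.589, 1.73, 5.92 and 3.59 CPM in the OVA libraries. It was low in every TLR7 library and highest in OVA replicate 3 (log2 fold change -3.58, SE 0.75, adjusted p = 0.0112, edgeR; -2.22, adjusted p = 0.374 without OVA replicates 3 and 4). Summed macrophage markers were also highest in OVA replicate 3, at 243.53 CPM, and their part in this result was not tested. Cd80, the partner ligand of CD86, was lower in all 4 TLR7 libraries than in any OVA library but did not pass (10.5, 16.03, 25.4 and 19.98 CPM in the TLR7 libraries and 31.4, 73.04, 35.04 and 44.5 CPM in the OVA libraries; -1.35, adjusted p = 0.291). Cd274, which encodes PD-L1, overlapped (-0.25, adjusted p = 0.569).

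Of the 10 CD28 family and related costimulatory receptors, Icos rose and Slamf6 and Cd226 fell. Icos (chr1:60977927-61000320), an inducible costimulator, was at 707, 646, 622 and 564 CPM in the TLR7 libraries, against 467, 197, 119 and 151 CPM in the OVA libraries. The TLR7 libraries were all above, by a small margin over OVA replicate 1 and a wide one over the others (log2 fold change 1.44, SE 0.38, adjusted p = 0.039, edgeR), and the log2 fold change was 2.09 without OVA replicate 1 and 0.94 without OVA replicates 3 and 4. Slamf6, a SLAM family receptor found on memory-like CD8 T cells (chr1:171917515-171953170), gave 13.4, 15.5, 26.2 and 24.0 CPM in the TLR7 libraries and 30.97, 52.7, 90.8 and 73.99 CPM in the OVA libraries. It was lower in every TLR7 library (log2 fold change -1.65, SE 0.28, adjusted p = 0.00389). Cd226, the activating partner of TIGIT, overlapped at OVA replicate 1 (9.97, 13.3, 23.1 and 8.45 CPM in the TLR7 libraries and 17.5, 45.3, 30.1 and 85.03 CPM in the OVA libraries; log2 fold change -1.69, SE 0.40, adjusted p = 0.0207). Cd28 itself did not pass (-0.14, adjusted p = 0.802).

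**Figure D2:**
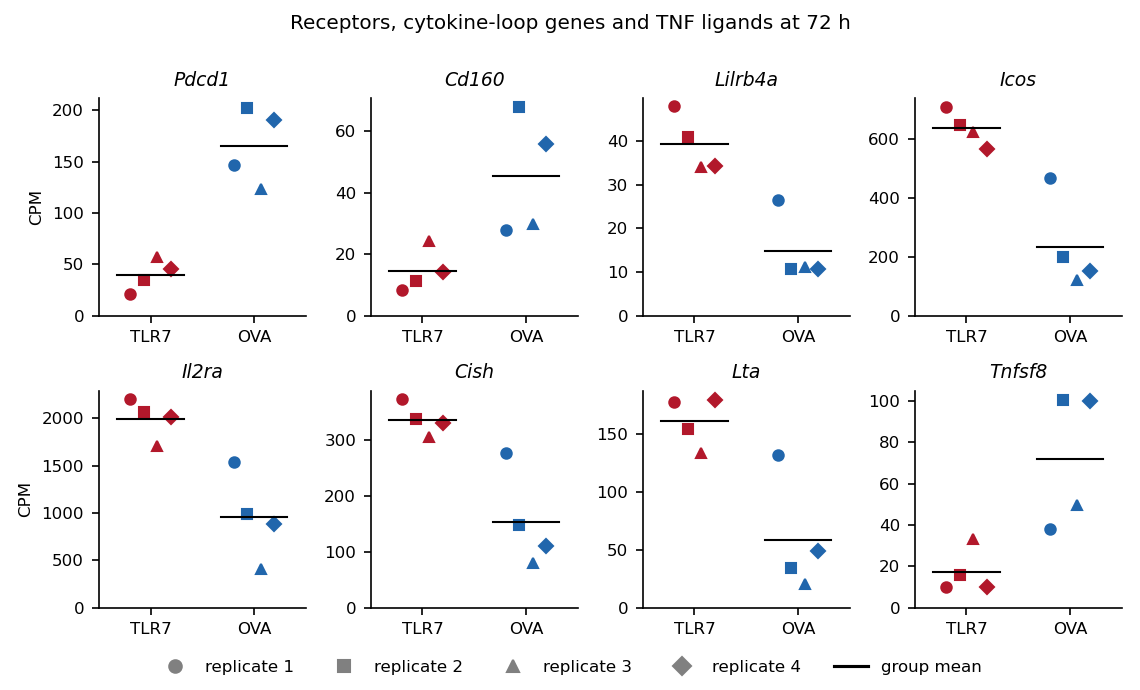
CPM of 8 genes in each TLR7 and OVA library at 72 h, with 1 symbol per replicate and a line at the group mean. In Lilrb4a, Icos, Il2ra, Cish and Lta the TLR7 points lie above all OVA points, with OVA replicate 1 the nearest, and in Pdcd1, Cd160 and Tnfsf8 they lie below.

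Of the 18 TNF receptors tested, Cd27, a costimulatory receptor of naive and memory T cells, was the 1 that passed, at 81.2, 79.8, 119 and 92.3 CPM in the TLR7 libraries, against 146, 164, 129 and 157 CPM in the OVA libraries (log2 fold change -0.68, SE 0.18, adjusted p = 0.0433, edgeR). Tnfrsf9, which encodes 4-1BB and is induced by antigen, did not pass (0.50, adjusted p = 0.528). Tnfrsf8, which encodes CD30, split the OVA libraries: it was at 750.1, 469, 342 and 418 CPM in the TLR7 libraries, against 366, 2.96, 2.78 and 2.71 CPM in the OVA libraries. OVA replicate 1 was within the TLR7 range and the other 3 were near 3 CPM. The gene did not pass with all libraries (2.40, adjusted p = 0.409). It passed without OVA replicate 1, a setting that removes the 1 OVA library at the TLR7 level and so adds no support.

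Of 13 TNF family ligands, 2 fell and 1 rose. Tnfsf8, the ligand of CD30 (chr4:63831308-63861347), was at 9.87, 15.95, 33.5 and 10.3 CPM in the TLR7 libraries, against 38.1, 100.3, 49.5 and 99.9 CPM in the OVA libraries, lower in every TLR7 library (log2 fold change -2.04, SE 0.40, adjusted p = 0.00749, edgeR). The change differed from that at 24 h (difference of log2 fold changes -3.03, adjusted p = 0.018). Tnfsf11, encoding RANK ligand, was at 0.475, 0.661, 6.46 and 0.872 CPM in the TLR7 libraries and 6.19, 15.3, 6.83 and 52.2 CPM in the OVA libraries. TLR7 replicate 3 exceeded OVA replicate 1 (log2 fold change -3.16, SE 0.76, adjusted p = 0.0235), and the call was lost without OVA replicate 4 (-2.01, adjusted p = 0.136). Lta, which encodes lymphotoxin alpha (chr17:35203165-35205351), rose and was at 177, 154, 133 and 179 CPM in the TLR7 libraries, against 131, 34.3, 20.3 and 48.6 CPM in the OVA libraries. OVA replicate 1 came near the lowest TLR7 library and the other 3 were far below (log2 fold change 1.46, SE 0.38, adjusted p = 0.0368). The value was 0.97, adjusted p = 0.539 without OVA replicates 3 and 4. It was 2.29, adjusted p = 0.00038 without OVA replicate 1, which removes the OVA library nearest the TLR7 level and so adds no support. For Lta too the 72 h effect differed from the 24 h effect (2.45, adjusted p = 0.0409).

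Il2ra and Cish, which come from separate lists, were among the 60 genes that rose. Il2ra (chr2:11642807-11693193), the alpha chain that makes the IL-2 receptor high-affinity, was at 2199, 2060.2, 1706 and 2007 CPM in the TLR7 libraries, against 1533, 993, 410.5 and 888 CPM in the OVA libraries. It was the 1 of 28 cytokine receptors that rose, with no overlap between the groups (log2 fold change 1.06, SE 0.28, adjusted p = 0.038, edgeR). Cish (chr9:107296026-107302784), which encodes CIS, a STAT5 target and feedback inhibitor of cytokine and TCR signalling, was at 373, 337, 304 and 329 CPM in the TLR7 libraries, against 276, 147, 79.5 and 109.9 CPM in the OVA libraries, also without overlap (log2 fold change 1.13, SE 0.27, adjusted p = 0.0238). Without OVA replicate 1 the log2 fold changes were 1.44 for Il2ra and 1.65 for Cish, and without OVA replicates 3 and 4 they were 0.67 (adjusted p = 0.504) and 0.68 (adjusted p = 0.5). Pim1 and Socs2, other genes that cytokine signals induce, were also higher in all 4 TLR7 libraries but did not pass (0.79, adjusted p = 0.0759 for Pim1, and 0.94, adjusted p = 0.231 for Socs2).

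The promoter of Cish is shown because this gene had the lower p of Il2ra and Cish. The window runs from 250 bases before to 50 after the RefSeq start on the plus strand of GRCm38.p6 (chr9:107296409-107296708), and the capitals mark both matches to TTCNNNGAA, the core letters of a STAT site, which read the same on both strands. They start at the base of that RefSeq start and 11 bases beyond it, and neither overlaps the interferon motif searched. This start lies inside the gene as annotated (chr9:107296026-107302784), which begins further upstream.
Cish promoter: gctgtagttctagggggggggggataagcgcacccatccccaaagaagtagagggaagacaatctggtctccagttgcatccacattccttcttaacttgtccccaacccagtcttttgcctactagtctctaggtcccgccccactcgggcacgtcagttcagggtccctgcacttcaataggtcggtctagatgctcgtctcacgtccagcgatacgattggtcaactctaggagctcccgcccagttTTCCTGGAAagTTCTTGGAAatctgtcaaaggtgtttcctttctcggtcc

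A match is a description of letters, not a bound site. This motif occurred in 8.3% of all 32851 promoter windows of this length and in 9.55% of the genes with a window. It was found in 7 of the 41 genes with a window that rose (17.1%) and in 26 of the 330 that fell (7.9%). The motifs were chosen after the values were seen.

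The other STAT and SOCS genes that passed all fell. Of 22 in the list, Cish rose and 5 fell, with a median of -0.22 (-0.13 without TLR7 replicate 4 and -0.11 without OVA replicates 3 and 4). Socs5 (-0.70, adjusted p = 0.0294), Stat6 (-0.52, adjusted p = 0.0355) and Stat4, which transmits IL-12 signals (-0.76, adjusted p = 0.0473, edgeR), fell, and their groups overlapped. Bcl6, a repressor linked to memory, was at 0.949, 1.32, 4.75 and 0.682 CPM in the TLR7 libraries and 3.28, 6.13, 18.9 and 4.26 CPM in the OVA libraries, with TLR7 replicate 3 above OVA replicates 1 and 4 (log2 fold change -2.04, SE 0.52, adjusted p = 0.033). Il6ra and Il6st, the chains of the IL-6 receptor, fell, with the highest values in OVA replicate 3. Il6ra was at 6.46, 7.27, 6.10 and 4.66 CPM in the TLR7 libraries and 6.14, 9.04, 71.4 and 16.1 CPM in the OVA libraries. Without that replicate it gave -0.78, adjusted p = 0.209. Il6st gave -1.31, adjusted p = 0.0308 with it and -0.59, adjusted p = 0.168 without.

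Genes of the early TCR response were lower with the agonist in 8 of 30 cases, where 3.21% of all genes were. The fitted change was negative in 20 of the 30 and positive in 10, where 41.5% of all genes were positive, so the signs lie near that share. The median was -0.49, and it was -0.28 without OVA replicate 3 and -0.11 without OVA replicates 3 and 4. The 8 encode the zinc finger factors EGR1 and EGR3 and their corepressor NAB2, the orphan receptors NUR77 (Nr4a1) and NOR1 (Nr4a3), and the ERK pathway and MAP kinase inhibitors DUSP6, SPRY2 and DUSP10. Nr4a3 (chr4:48045153-48086447) was at 8.54, 18.3, 38.2 and 23.7 CPM in the TLR7 libraries, against 49.4, 124, 59.8 and 158 CPM in the OVA libraries, with every TLR7 library below every OVA library (log2 fold change -2.13, SE 0.39, adjusted p = 0.00577, edgeR). Egr3 (chr14:70077203-70082614) was at 0, 0, 0.269 and 0.0758 CPM in the TLR7 libraries, against 1.05, 1.94, 2.18 and 4.82 CPM in the OVA libraries. All 4 TLR7 libraries were at 0.269 CPM or less, a level of few counts, and below every OVA library (log2 fold change -4.48, SE 0.73, adjusted p = 0.00389). Egr1 (chr18:34859823-34864984) was at 32.1, 25.5, 40.9 and 23.8 CPM in the TLR7 libraries, against 57.02, 52.8, 47.6 and 52.0 CPM in the OVA libraries, a smaller step without overlap (log2 fold change -0.78, SE 0.16, adjusted p = 0.0111).

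Dusp6, Spry2, Nab2 and Dusp10, inhibitors among the 8, were picked from the list because they passed. Dusp6 (chr10:99263231-99267489) was at 13.6, 14.4, 18.7 and 9.40 CPM in the TLR7 libraries, against 23.2, 33.8, 28.7 and 40.2 CPM in the OVA libraries (log2 fold change -1.17, SE 0.21, adjusted p = 0.00579, edgeR). Spry2 (chr14:105891947-105896819) was at 3.13, 3.55, 5.38 and 4.55 CPM in the TLR7 libraries, against 11.99, 18.5, 14.02 and 21.95 CPM in the OVA libraries (log2 fold change -1.99, SE 0.38, adjusted p = 0.00712). Nab2 (chr10:127660918-127668568) was at 14.9, 16.1, 23.5 and 16.0 CPM in the TLR7 libraries, against 39.3, 52.3, 44.2 and 62.04 CPM in the OVA libraries (log2 fold change -1.48, SE 0.32, adjusted p = 0.0122). In each of these 3 the highest TLR7 library was replicate 3 and it stayed below the lowest OVA library. Nr4a1 overlapped by less than 1 CPM, at 26.5, 27.3, 56.1 and 31.7 CPM in the TLR7 libraries and 55.8, 68.9, 86.1 and 94.95 CPM in the OVA libraries (log2 fold change -1.11, SE 0.25, adjusted p = 0.0153). Dusp10 rested on OVA replicate 3, at 8.45, 8.10, 16.7 and 6.44 CPM in the TLR7 libraries and 12.2, 14.4, 118 and 11.5 CPM in the OVA libraries (log2 fold change -1.97, SE 0.55, adjusted p = 0.0474; -0.35, adjusted p = 0.565 without that replicate).

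Without OVA replicates 3 and 4 none of the 30 passed, and the log2 fold changes of the 8 were then -3.72 for Egr3, -1.93 for Nr4a3, -1.84 for Spry2, -1.36 for Nab2, -0.80 for Nr4a1, -1.01 for Dusp6, -0.83 for Egr1 and -0.40 for Dusp10. Without OVA replicate 1, 12 were lower and 2 higher. Myc, a target of both TCR and cytokine signals (0.59, adjusted p = 0.123), and Fos (-1.53, adjusted p = 0.112) did not pass. In the TCR complex and proximal signalling list, 2 of 25 fell. Fyn, a Src family kinase, was at 108, 108, 137 and 119 CPM in the TLR7 libraries, against 145, 197, 244 and 236 CPM in the OVA libraries (log2 fold change -0.80, SE 0.17, adjusted p = 0.0122). The other was Ubash3a, a negative regulator of TCR signalling (log2 fold change -0.66, SE 0.18, adjusted p = 0.0472). The CD3, CD8 and TCR constant genes did not pass. In the list of 25, 8 genes had every TLR7 library below every OVA library, against 5.29% of all genes, and 0 had every one above. Cd8a was at 501, 526, 557 and 589 CPM in the TLR7 libraries and 607, 758, 684 and 842 CPM in the OVA libraries, without overlap (-0.41, adjusted p = 0.114).

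**Figure D3:**
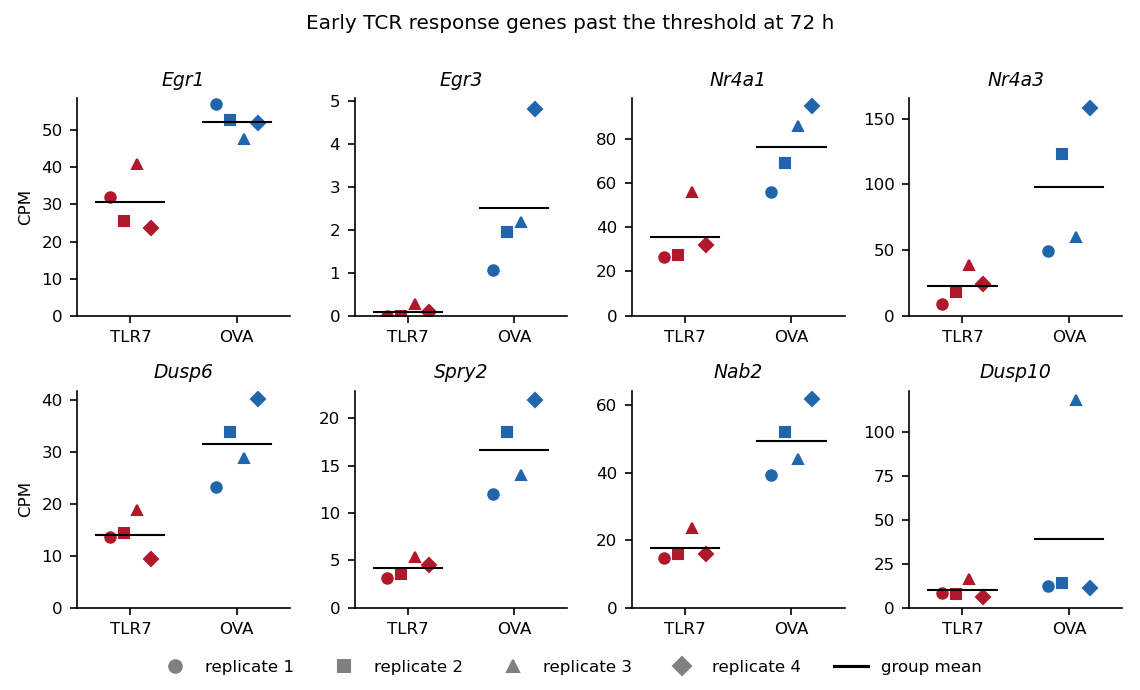
CPM of the 8 early TCR response genes that passed the threshold, in each TLR7 and OVA library at 72 h, with 1 symbol per replicate and a line at the group mean. The TLR7 points are the lower in each panel, with overlap in Nr4a1 and Dusp10, and the high OVA point in Dusp10 is replicate 3.

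Transcription factors of effector and exhausted T cells fell in 6 of 28 cases, against 3.21% of all genes. Tox (chr4:6686353-6991557), an HMG-box factor needed for the exhausted state, was at 6.65, 5.87, 10.9 and 5.35 CPM in the TLR7 libraries, against 14.3, 29.02, 36.8 and 23.6 CPM in the OVA libraries. The lowest OVA library was above the highest TLR7 library (log2 fold change -1.84, SE 0.28, adjusted p = 0.00315, edgeR), and it was not past the threshold without OVA replicates 3 and 4 (-1.57, adjusted p = 0.0611). It differed from the change at 24 h (difference -2.20, adjusted p = 0.0171). Nfatc1, a calcium-regulated factor, was at 52.98, 58.5, 58.3 and 52.7 CPM in the TLR7 libraries, against 75.1, 85.03, 123 and 125 CPM in the OVA libraries (log2 fold change -0.88, SE 0.21, adjusted p = 0.0218). Bach2, which restrains effector differentiation, was at 54.2, 65.3, 79.1 and 49.9 CPM in the TLR7 libraries and 69.8, 120.3, 183 and 182 CPM in the OVA libraries, with overlap at OVA replicate 1 (log2 fold change -1.16, SE 0.27, adjusted p = 0.0211).

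Eomes, a T-box factor of memory and effector cells, was at 2.37, 2.73, 4.04 and 1.78 CPM in the TLR7 libraries and 3.75, 4.98, 10.8 and 9.44 CPM in the OVA libraries and overlapped by a small margin (log2 fold change -1.40, SE 0.36, adjusted p = 0.0331, edgeR). Irf8 gave -0.90, adjusted p = 0.0438. Tbx21, which encodes T-bet, pointed the other way without passing (0.70, adjusted p = 0.206). Maf, which drives Il10 in several T cell types, was at 30.5, 23.5, 12.8 and 17.7 CPM in the TLR7 libraries and 14.7, 0.169, 2.41 and 0.279 CPM in the OVA libraries. In this gene OVA replicate 1 was again among the TLR7 values and the other OVA libraries were under 3 CPM (2.26, adjusted p = 0.188; past the threshold without OVA replicate 1, which again adds no support).

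Genes of naive and memory T cells fell in 9 of 26 cases, with none higher and a median of -1.10, but OVA replicate 3 carried much of it: without that library 6 fell and the median was -0.12. Tcf7 (chr11:52252371-52283014), which encodes TCF-1, the factor of naive and stem-like T cells, was at 55.4, 65.3, 117 and 61.0 CPM in the TLR7 libraries, against 99.1, 197, 988 and 191 CPM in the OVA libraries. TLR7 replicate 3 exceeded OVA replicate 1, and OVA replicate 3 stood far above all others (log2 fold change -2.30, SE 0.46, adjusted p = 0.00787, edgeR). Without OVA replicate 3 the gene still passed (-1.12, adjusted p = 0.0186), and without replicates 3 and 4 it did not (-0.97, adjusted p = 0.162). OVA replicate 3 also held the highest B cell marker sum, 1015.43 CPM, of which Ighm gave 688.5 CPM. The part of that sum in these falls was not tested. Btg2, an antiproliferative gene, was at 20.1, 19.3, 30.2 and 18.6 CPM in the TLR7 libraries and 34.5, 47.4, 165 and 42.3 CPM in the OVA libraries with no overlap (log2 fold change -1.71, SE 0.34, adjusted p = 0.00824).

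Ccr7 (chr11:99144196-99155077), the receptor that guides T cells to lymph nodes, was at 350.3, 329, 615 and 314 CPM in the TLR7 libraries, against 611, 909, 1087 and 724 CPM in the OVA libraries. The groups overlapped only between TLR7 replicate 3 and OVA replicate 1 (log2 fold change -1.05, SE 0.21, adjusted p = 0.00869, edgeR; -0.90, adjusted p = 0.153 without OVA replicates 3 and 4). Dapl1, a gene of naive and memory cells, was at 3.70, 8.68, 28.7 and 12.2 CPM in the TLR7 libraries and 56.5, 151, 86.6 and 84.1 CPM in the OVA libraries, without overlap (log2 fold change -2.81, SE 0.61, adjusted p = 0.0125). Klf3 (-2.54, adjusted p = 0.0114), Actn1 (-1.82, adjusted p = 0.0227) and Tespa1 (-1.63, adjusted p = 0.0277) also fell. Klf2, which keeps T cells recirculating, was at 13.2, 12.1, 16.1 and 16.3 CPM in the TLR7 libraries and 12.4, 7.65, 344 and 7.85 CPM in the OVA libraries, high in OVA replicate 3 alone, and did not pass (-2.68, adjusted p = 0.0887). S1pr1, its target for tissue exit, was likewise at 565 CPM in that library and at or below 61.7 CPM in the other 7 (-1.59, adjusted p = 0.276).

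Among 27 homing and chemokine receptors, Ccr7, Ccr9 and Cd44 fell. Cd44, a hyaluronan receptor raised on activated cells, was at 86.4, 101, 153 and 94.2 CPM in the TLR7 libraries and 133, 286, 141 and 271 CPM in the OVA libraries. TLR7 replicate 3 lay above OVA replicates 1 and 3 (log2 fold change -0.93, SE 0.25, adjusted p = 0.039, edgeR). Ccr9, a gut-homing receptor, rested on OVA replicate 3. It was at 0.0949, 0.0826, 0.0897 and 0.0758 CPM in the TLR7 libraries, against 0.0421, 0.0845, 33.04 and 0.598 CPM in the OVA libraries (log2 fold change -6.54, SE 1.49, adjusted p = 0.0171). Without OVA replicates 3 and 4 the log2 fold change was 0.41, adjusted p = 0.982. Ccr6 narrowly missed, at 0.190, 0.413, 6.64 and 0.834 CPM in the TLR7 libraries and 18.7, 38.02, 19.3 and 27.2 CPM in the OVA libraries, with no overlap (-3.60, adjusted p = 0.052). Ccr4, a skin-homing receptor, was higher in all 4 TLR7 libraries without passing (99.1, 89.9, 68.9 and 83.1 CPM in the TLR7 libraries and 66.2, 20.7, 8.97 and 17.5 CPM in the OVA libraries; 1.59, adjusted p = 0.0993).

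Type I interferon induced genes, 43 of which were tested, fell in 9 cases and rose in none. These are antiviral and signalling genes switched on through STAT and IRF factors. At 72 h 41 of the 43 had a negative log2 fold change, where 41.5% of all genes had a positive one. Their median was -1.05 against -0.08 over all genes. Ifi203 (chr1:173920407-173942672), a PYHIN family gene, was at 2.37, 1.98, 4.13 and 1.59 CPM in the TLR7 libraries, against 11.3, 32.4, 55.9 and 31.1 CPM in the OVA libraries. Every TLR7 library was well below every OVA library (log2 fold change -3.68, SE 0.48, adjusted p = 0.000964, edgeR), and it still passed without OVA replicates 3 and 4 (-3.08, adjusted p = 0.0296). Mx1 (chr16:97447035-97462907), an antiviral GTPase, was at 2.28, 0.744, 0.448 and 0.569 CPM in the TLR7 libraries, against 4.46, 6.63, 5.28 and 6.34 CPM in the OVA libraries (log2 fold change -2.57, SE 0.53, adjusted p = 0.0101). Ifi44 (chr3:151730922-151749960) was at 1.14, 0.248, 0.135 and 0.152 CPM in the TLR7 libraries, against 2.95, 3.59, 2.64 and 4.02 CPM in the OVA libraries (log2 fold change -3.15, SE 0.68, adjusted p = 0.0125). In both, TLR7 replicate 1 was the highest TLR7 library and still below all 4 OVA libraries.

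Ifit2, which binds viral RNA, was at 5.51, 5.12, 3.90 and 5.57 CPM in the TLR7 libraries, against 6.52, 11.03, 15.1 and 14.2 CPM in the OVA libraries, with the highest TLR7 library below the lowest OVA library (log2 fold change -1.22, SE 0.27, adjusted p = 0.0149, edgeR). Oasl2 was at 0.760, 0.579, 0.538 and 0.607 CPM in the TLR7 libraries and 1.85, 2.96, 4.05 and 3.11 CPM in the OVA libraries (log2 fold change -2.27, SE 0.57, adjusted p = 0.0299). Mx2 was at 2.47, 0.579, 0.448 and 0.379 CPM in the TLR7 libraries and 4.76, 6.93, 5.37 and 5.14 CPM in the OVA libraries (log2 fold change -2.61, SE 0.67, adjusted p = 0.0337). Neither overlapped. Samd9l (-1.28, adjusted p = 0.0263) and Ifih1, which encodes the RNA sensor MDA5 (-1.25, adjusted p = 0.0495), passed as well. Trim30a was close to the threshold at 97.98, 58.8, 54.9 and 56.6 CPM in the TLR7 libraries and 125, 224, 139 and 137 CPM in the OVA libraries, with no overlap (-1.22, adjusted p = 0.0559).

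Of the 24 h libraries, OVA replicates 1 and 3 and TLR7 replicates 3 and 4 lay between the times, which limits the 24 h values given here. At 24 h the same 43 genes had a median log2 fold change of 0.53 for TLR7 over OVA, and 9 of them differed between the times (edgeR). Over all genes tested 118 did (0.81%), and this count was 0 without OVA replicate 2, 1 without TLR7 replicate 4, 28 and 30 without TLR7 replicates 1 and 2, 59 and 65 without OVA replicates 4 and 3, 247 without TLR7 replicate 3 and 752 without OVA replicate 1. The difference of the log2 fold changes was -3.11 for Ifi203 (adjusted p = 0.0261), -3.25 for Mx1 (adjusted p = 0.0409) and -4.86 for Ifi44 (adjusted p = 0.018). For Ifi44 the 24 h libraries held 3.47, 2.48, 5.10 and 0.724 CPM with TLR7, against 0.669, 0.772, 1.32 and 0.795 CPM with OVA. At 72 h 4 of the 43 were called lower without OVA replicate 3, 4 without replicate 4, 12 without replicate 1 and 1 without replicates 3 and 4, where the median was -0.79. The TLR2 libraries at 72 h gave a median of -0.90 over the same OVA libraries, with no gene past the threshold, and the direct contrast of TLR7 with TLR2 called 1 of the 43. B cell, macrophage and dendritic cell marker sums were also lower in all 4 TLR7 libraries than in any OVA library at 72 h, and their part in the interferon result was not tested. Ighm made up most of the B cell difference, and Ccr7, also a T cell gene, most of the dendritic cell difference.

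The promoters of the interferon genes that fell and hold a response element are shown so that the element can be seen in place. Capitals mark GAAA followed after any 2 bases by another GAAA, the core of an interferon-stimulated response element, searched on both strands. The windows run from 250 bases before to 50 after the RefSeq start in GRCm38.p6. The Ifi203 window is chr1:173942443-173942742 and the Ifih1 window chr2:62646206-62646505, both on the minus strand. The match starts 35 bases upstream of the RefSeq start of this window in Ifi203 and 32 bases downstream in Ifih1. Neither overlaps a TTCNNNGAA match. In Ifi203 both that start and the match lie inside the gene as annotated (chr1:173920407-173942672), not upstream of it.
Ifi203 promoter: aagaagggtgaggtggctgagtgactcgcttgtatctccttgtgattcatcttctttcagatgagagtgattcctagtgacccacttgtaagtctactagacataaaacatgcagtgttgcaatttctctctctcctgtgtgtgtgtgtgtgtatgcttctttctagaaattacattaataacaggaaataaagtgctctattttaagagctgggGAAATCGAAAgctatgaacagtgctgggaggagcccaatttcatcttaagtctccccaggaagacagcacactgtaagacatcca
Ifih1 promoter: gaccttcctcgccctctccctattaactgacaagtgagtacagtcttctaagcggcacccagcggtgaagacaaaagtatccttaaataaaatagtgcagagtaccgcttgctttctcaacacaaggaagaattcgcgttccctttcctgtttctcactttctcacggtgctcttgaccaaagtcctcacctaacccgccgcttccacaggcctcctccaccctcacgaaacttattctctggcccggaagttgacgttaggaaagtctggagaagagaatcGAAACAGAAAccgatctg

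Of the 9 interferon genes that fell, 6 had a promoter window and 2 of these held the motif. Of the 30 tested interferon genes with a window, 16 held it (53.3%), against 3.44% of all windows and 3.99% of genes with a window. The other Ifi203 window (chr1:173942623-173942922), which covers the annotated gene start at 173942672, held no match to these letters. The Pdcd1 window (chr1:94052504-94052803) held none either.

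**Figure D4:**
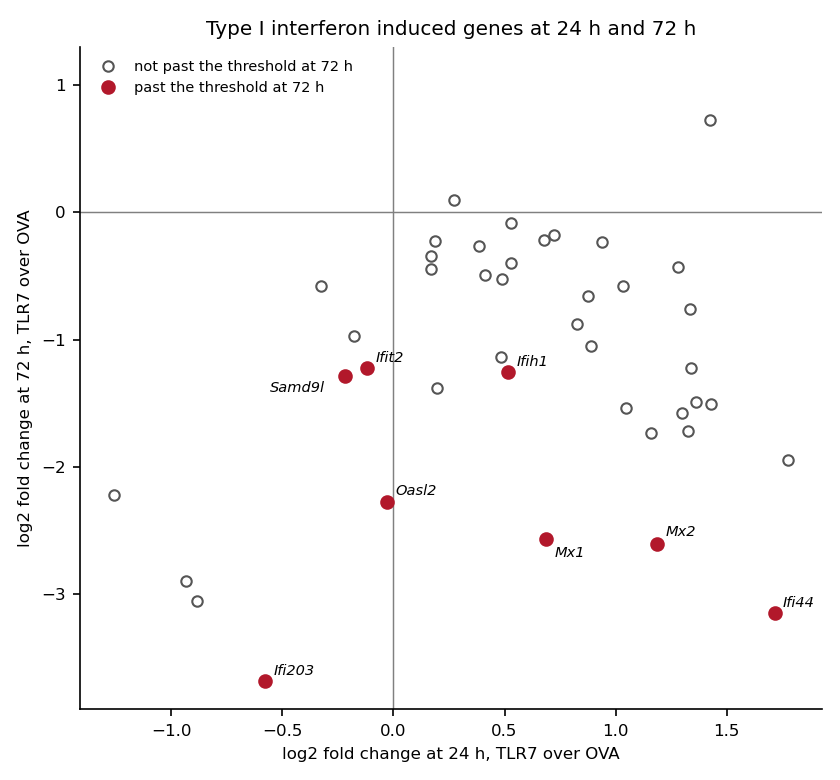
Log2 fold change of 42 of the 43 type I interferon induced genes tested, TLR7 over OVA, at 24 h (x axis) and at 72 h (y axis), with the 8 of them past the threshold at 72 h filled and named. Nearly all points lie below 0 at 72 h (40 of 42), and most lie above 0 at 24 h.

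Interferon gamma induced genes were lower in 3 of 33 cases, with a median of -0.27 (-0.17 without OVA replicate 2). Iigp1, an immunity-related GTPase, was at 3.23, 2.89, 2.38 and 3.11 CPM in the TLR7 libraries, against 9.05, 25.7, 13.9 and 29.1 CPM in the OVA libraries, without overlap (log2 fold change -2.75, SE 0.48, adjusted p = 0.00448, edgeR). Gbp10, a guanylate-binding protein gene, was at 20.3, 7.93, 11.6 and 7.51 CPM in the TLR7 libraries and 39.98, 82.9, 43.7 and 40.2 CPM in the OVA libraries, also without overlap (log2 fold change -2.14, SE 0.44, adjusted p = 0.0106). The third was Irf8. Both GTPase families hold near-identical copies, between which reads may be split. In the Schlafen family all 7 members tested were lower in the fitted change, where 41.5% of all genes were higher, and 2 passed. Slfn2, which keeps T cells quiescent, was at 53.5, 44.3, 62.4 and 51.03 CPM in the TLR7 libraries, against 87.3, 146, 278 and 425 CPM in the OVA libraries (log2 fold change -2.15, SE 0.45, adjusted p = 0.0106). Slfn5 was at 5.22, 3.22, 2.56 and 1.63 CPM in the TLR7 libraries and 6.86, 11.8, 6.87 and 6.81 CPM in the OVA libraries (log2 fold change -1.38, SE 0.37, adjusted p = 0.038). Neither gene overlapped between the groups. MHC class I genes did not pass in any of 22 cases.

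Cytotoxic effector genes had a median log2 fold change of 0.63 (0.35 without OVA replicates 3 and 4), but none of 16 passed with all 8 libraries. Prf1, encoding perforin, was at 172, 151, 138 and 124 CPM in the TLR7 libraries, against 137, 56.5, 43.96 and 41.2 CPM in the OVA libraries (1.07, adjusted p = 0.0531, edgeR). Gzmb, encoding granzyme B, was at 3360.3, 3194, 2952 and 3749 CPM in the TLR7 libraries, against 2694, 1757, 711 and 873 CPM in the OVA libraries (1.14, adjusted p = 0.14). OVA replicate 1 was the highest OVA library in both, above TLR7 replicate 4 for Prf1 and below all TLR7 libraries for Gzmb. Without that replicate 4 of the 16 were called higher, Prf1 (1.70, adjusted p = 0.000679) and Gzmb (1.64, adjusted p = 0.0257) among them, in a setting that removes the OVA library nearest the TLR7 level. Gzma, encoding granzyme A, was at 154, 91.8, 55.3 and 71.8 CPM in the TLR7 libraries and 57.2, 2.07, 20.3 and 2.71 CPM in the OVA libraries, overlapping at OVA replicate 1 (2.18, adjusted p = 0.147; past the threshold without it). The 11 killer lectin receptors held no call.

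Of 16 T cell cytokines, Xcl1 and Spp1 fell. Xcl1, a chemokine that draws cross-presenting dendritic cells, was at 0.475, 0.165, 7.62 and 0.720 CPM in the TLR7 libraries, against 9.51, 33.1, 19.8 and 423 CPM in the OVA libraries. TLR7 replicate 3 was the highest of its group and OVA replicate 4 was far above the rest (log2 fold change -5.65, SE 1.27, adjusted p = 0.0165, edgeR), and the call was lost without OVA replicate 4 (-3.04, adjusted p = 0.121). Spp1, encoding osteopontin, was at 0.380, 0.496, 0.673 and 0.455 CPM in the TLR7 libraries, against 2.27, 4.01, 2.91 and 1.99 CPM in the OVA libraries, with no overlap (log2 fold change -2.45, SE 0.57, adjusted p = 0.0204). Il2 was high in OVA replicate 4 alone, at 0.190, 0.0826, 0.359 and 0.152 CPM in the TLR7 libraries and 0.252, 0.380, 0.364 and 66.3 CPM in the OVA libraries (-6.30, adjusted p = 0.0521; -0.59, adjusted p = 0.909 without it). Ifng did not pass (0.35, adjusted p = 0.809).

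A pair of cytokines split the OVA group. Il10, an anti-inflammatory cytokine, was at 94.6, 37.9, 36.3 and 24.0 CPM in the TLR7 libraries, against 45.1, 0.0845, 0.091 and 0.199 CPM in the OVA libraries. Il21, a cytokine for B and T cells, was at 10.3, 8.10, 7.85 and 6.48 CPM in the TLR7 libraries, against 6.06, 0, 0.273 and 0.0797 CPM in the OVA libraries. For both, OVA replicate 1 was near or within the TLR7 range and the other 3 OVA libraries were at 0.273 CPM or less. With all libraries neither passed (2.08, adjusted p = 0.444 for Il10; 2.34, adjusted p = 0.245 for Il21, edgeR), and both did without OVA replicate 1. That setting removes the 1 OVA library at the TLR7 level and so adds no support.

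Chemokine calls rested on single OVA libraries. Ccl3 was at 1.14, 0.744, 2.83 and 0.948 CPM in the TLR7 libraries, against 2.40, 3.34, 4.596 and 235 CPM in the OVA libraries. Ccl4 was at 1.90, 1.82, 2.38 and 2.20 CPM in the TLR7 libraries, against 3.28, 2.62, 3.55 and 278 CPM in the OVA libraries. Both were high in OVA replicate 4 (-5.38, adjusted p = 0.0266 and -5.10, adjusted p = 0.0331, edgeR). Without it the values were -1.15, adjusted p = 0.556 for Ccl3 and -0.51, adjusted p = 0.819 for Ccl4. Ccl5 was high in OVA replicate 3 (3.23, 2.40, 3.09 and 3.79 CPM in the TLR7 libraries and 4.33, 3.84, 43.6 and 5.62 CPM in the OVA libraries; -2.19, adjusted p = 0.0343, and -0.55, adjusted p = 0.375 without it). With Xcl1, 4 of 14 chemokines fell. The list median was -4.12, or -2.78 with the 3 genes at 0 in all TLR7 libraries set at 3 counts a library. It was -1.69 without OVA replicate 4 and -0.37 without OVA replicates 3 and 4.

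None of 40 G1/S and 44 G2/M cell cycle genes passed. In the list of CDK inhibitors and cyclins, Cdk6 (chr5:3341485-3531008), the kinase partner of D cyclins, rose and was at 223, 257, 182 and 228 CPM in the TLR7 libraries, against 141, 113, 55.7 and 144 CPM in the OVA libraries. The groups did not overlap (log2 fold change 0.97, SE 0.22, adjusted p = 0.0146, edgeR; 0.82, adjusted p = 0.0886 without OVA replicates 3 and 4). Of 19 glycolysis genes, Hk2, the inducible hexokinase, rose and was at 301, 266, 215 and 253 CPM in the TLR7 libraries, against 191, 128, 63.1 and 130.5 CPM in the OVA libraries, again separated (log2 fold change 1.01, SE 0.24, adjusted p = 0.0237). None passed among 21 hypoxia, 37 oxidative phosphorylation, 24 cholesterol synthesis, 16 fatty acid synthesis, 34 ATF4, 24 ER stress, 34 ribosome biogenesis and 37 ribosomal protein genes.

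In the list of p53 targets and apoptosis genes 4 of 27 fell. Bcl2l11 (chr2:128126038-128162547), which encodes the death-inducing BH3 protein BIM, was at 25.9, 26.03, 48.7 and 22.8 CPM in the TLR7 libraries, against 56.3, 125, 183 and 109 CPM in the OVA libraries. The lowest OVA library, replicate 1, was above the highest TLR7 library, replicate 3 (log2 fold change -1.93, SE 0.28, adjusted p = 0.00191, edgeR), and the gene passed without OVA replicates 3 and 4 (-1.53, adjusted p = 0.0432). Perp, a p53 target of the cell membrane (chr10:18845020-18857073), was at 7.69, 9.42, 12.9 and 5.69 CPM in the TLR7 libraries, against 18.3, 49.9, 21.1 and 36.1 CPM in the OVA libraries. It did not overlap between the groups (log2 fold change -1.81, SE 0.31, adjusted p = 0.00389) and passed without OVA replicates 3 and 4 as well (-1.92, adjusted p = 0.0318). Bcl2a1b, an antiapoptotic BCL2 relative (-1.23, adjusted p = 0.0485), and Sesn1 (-1.23, adjusted p = 0.0495) were near the threshold. Birc3, encoding the NF-kB target cIAP2, fell slightly (-0.63, adjusted p = 0.0415), and with Bcl2a1b it made up the 2 of 24 NF-kB genes that passed.

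Of 10 DNA methylation and TET genes, Dnmt3a (chr12:3806007-3914443), a de novo DNA methyltransferase, was at 23.7, 24.8, 30.5 and 21.3 CPM in the TLR7 libraries, against 42.97, 72.4, 82.1 and 138 CPM in the OVA libraries (log2 fold change -1.74, SE 0.34, adjusted p = 0.00731, edgeR). Tet3, which oxidises methylcytosine, was at 35.6, 38.9, 36.95 and 27.6 CPM in the TLR7 libraries and 41.6, 47.2, 89.6 and 64.7 CPM in the OVA libraries (log2 fold change -0.81, SE 0.20, adjusted p = 0.0255). Neither overlapped. Of 11 genes of the Myc network, Max, the partner of Myc, fell (-0.89, adjusted p = 0.0255). Among 23 Toll-like receptors and adaptors, Tlr7 itself, the receptor of the agonist (chrX:167304929-167330558), was at 1.42, 0.992, 0.762 and 0.493 CPM in the TLR7 libraries, against 2.19, 3.55, 4.41 and 5.46 CPM in the OVA libraries. It was low in all 8 libraries and lower in every TLR7 library (log2 fold change -2.15, SE 0.58, adjusted p = 0.0421). Ticam2, an adaptor of TLR4 (-1.42, adjusted p = 0.0129), and Tlr12 (-2.52, adjusted p = 0.0394) fell too, and Tlr12 was highest in OVA replicate 3, at 7.10 CPM.

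By size, the largest rises among genes without overlap and with a mean of 5 CPM or more in either group began with Sox5 and Zc3h12c. Sox5, an HMG-box factor, was at 8.83, 10.5, 6.14 and 5.50 CPM in the TLR7 libraries, against 4.25, 1.10, 1.05 and 0.757 CPM in the OVA libraries (log2 fold change 2.10, SE 0.58, adjusted p = 0.0464, edgeR). Zc3h12c, a CCCH zinc finger gene, was at 9.78, 5.70, 3.68 and 3.22 CPM in the TLR7 libraries and 3.11, 0.676, 0.683 and 1.35 CPM in the OVA libraries (log2 fold change 1.92, SE 0.46, adjusted p = 0.0234). Gcnt4 (1.89, adjusted p = 0.0371) and Gcnt1 (1.68, adjusted p = 0.0435), glycosyltransferases that build core 2 O-glycans, rose together. Gcnt1 was at 13.5, 23.7, 13.8 and 23.9 CPM in the TLR7 libraries and 12.1, 4.82, 2.78 and 3.67 CPM in the OVA libraries. Dgat2, a triglyceride synthesis enzyme (1.46, adjusted p = 0.039), Mfsd2a, a lysophospholipid transporter (1.19, adjusted p = 0.0337), Sytl3, a synaptotagmin-like Rab27 effector (1.32, adjusted p = 0.0163), Srxn1, encoding sulfiredoxin (1.13, adjusted p = 0.0235), and Ifitm1 (1.43, adjusted p = 0.0436) completed the set with Lilr4b, Lta, Icos, Lilrb4a, Cish and Il2ra. Ifitm1 is an interferon-inducible membrane protein gene and was at 12.2, 11.9, 8.97 and 17.3 CPM in the TLR7 libraries, against 7.91, 3.63, 4.19 and 2.99 CPM in the OVA libraries, the opposite direction to the interferon genes that fell. Each of these 15 genes lost its call without OVA replicates 3 and 4, a setting in which 0 of all genes tested were called higher.

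The largest falls without overlap included a set that was low in every TLR7 library and present in all 4 OVA libraries. Igfbp7, an insulin-like growth factor binding protein gene, was at 0.0949, 0.0826, 1.70 and 0.303 CPM in the TLR7 libraries, against 9.30, 18.3, 14.1 and 19.9 CPM in the OVA libraries (log2 fold change -4.67, SE 1.15, adjusted p = 0.0263, edgeR). Tbc1d4, a Rab GTPase-activating protein gene, was at 0.475, 0.248, 2.65 and 0.493 CPM in the TLR7 libraries, against 2.95, 14.4, 21.3 and 7.37 CPM in the OVA libraries (log2 fold change -3.48, SE 0.58, adjusted p = 0.00389; -3.06, adjusted p = 0.0611 without OVA replicates 3 and 4). Wisp1, a CCN family gene, was at 0, 0, 1.35 and 0.227 CPM in the TLR7 libraries and 4.08, 11.7, 5.51 and 5.14 CPM in the OVA libraries (-3.88, adjusted p = 0.0272). Lad1 (-3.92, adjusted p = 0.00888) and Npas4, an activity-induced factor (-4.01, adjusted p = 0.00841), had their highest values in OVA replicate 4, as did Crabp2, a retinoic acid binding protein gene (-4.30, adjusted p = 0.0342; 37.1 CPM in that library). Pydc3 and Pydc4, PYHIN family genes close in sequence to each other (-4.23, adjusted p = 0.00579 and -4.01, adjusted p = 0.00389), were highest in OVA replicate 3, and so were Timp2 (-3.49, adjusted p = 0.00731), Mpeg1, a macrophage gene (-5.07, adjusted p = 0.0153), and Cd74 (-3.95, adjusted p = 0.00552). Pou2af1, a B cell coactivator gene (-5.04, adjusted p = 0.0227), was highest in OVA replicate 4.

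Markers of other spleen cells moved with these falls, and their part in them was not tested. The summed level of 22 B cell markers was 302.04, 279.45, 405.3 and 327.73 CPM in the TLR7 libraries, against 524.79, 671.66, 1015.43 and 735.36 CPM in the OVA libraries. All TLR7 sums were lower, which gives the smallest p that 70 arrangements allow (exact permutation test, 2-sided, p = 0.0286, adjusted over 12 cell types 0.0858). Of that list Ighm, Cd72 and Cd37 are at 5 CPM or more in all 8 libraries. Ighm alone averaged 184.14 CPM with TLR7 and 540.52 CPM with OVA, where the sums averaged 328.63 and 736.81 CPM. It thus made up most of the B cell difference. Ighm was at 127, 141, 267 and 202 CPM in the TLR7 libraries, against 371, 583, 688 and 519.5 CPM in the OVA libraries (log2 fold change -1.55, SE 0.25, adjusted p = 0.00389, edgeR). Cd79a, a defining B cell gene, did not pass (-2.76, adjusted p = 0.104). In all, 5 of 22 B cell markers fell: Ighm, Ighd, Pou2af1, Ms4a1 and Bank1.

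Macrophage and monocyte markers summed to 57.57 to 65.7 CPM in the TLR7 libraries, against 74.47, 85.99, 243.53 and 81.38 CPM in the OVA libraries. Of these sums Ctss alone gave on average 45.4 CPM with TLR7 and 73.2 CPM with OVA. Of 16 tested, 3 fell: Ctss (-0.69, adjusted p = 0.0233, edgeR), Csf1r, encoding the M-CSF receptor, at 17.3 CPM in OVA replicate 3, and Adgre1, encoding F4/80, which was 0 in all 4 TLR7 libraries and 0.0421, 0.0422, 3.05 and 0.159 CPM in the OVA libraries. Itgam was at 0 in all 8. Dendritic cell markers summed to 593.05 to 935.06 CPM with TLR7 and 986.97 to 1474.03 CPM with OVA, and 6 of 16 fell, of which Ccr7 and Irf8 are also T cell genes. Stromal and endothelial markers summed to 20.31 to 31.5 CPM with TLR7 and 33.82 to 134.61 CPM with OVA, with Dcn, Col3a1, Pdgfra, Lyve1 and Emcn at 0 in all 8 libraries. These 3 sums also reached p = 0.0286 in the exact permutation test, with adjusted p = 0.0858 each.

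Of the plasma cell genes 3 of 11 fell, Sdc1, Igha and Jchain, and Igha and Jchain were high in OVA replicates 3 and 4: Jchain was at 0, 0.165, 0.0897 and 0.190 CPM in the TLR7 libraries, against 0.210, 0.0845, 22.6 and 9.80 CPM in the OVA libraries. MHC class II genes fell in 3 of 10 cases, Cd74, H2-Aa and H2-Eb1. Cd74, the invariant chain gene, was at 3.23, 2.31, 4.93 and 3.07 CPM in the TLR7 libraries, against 17.0, 19.01, 123 and 52.4 CPM in the OVA libraries. H2-Aa was at 0.665, 0.744, 0.852 and 0.758 CPM in the TLR7 libraries, against 1.47, 0.803, 31.9 and 17.01 CPM in the OVA libraries (log2 fold change -4.05, SE 1.02, adjusted p = 0.0297, edgeR). OVA replicates 3 and 4 were high for both and OVA replicates 1 and 2 near the TLR7 libraries for H2-Aa. Neutrophil markers, 0 of 8 called, summed to 0.68 to 1.16 CPM with TLR7 and to 0.93, 0.38, 56.55 and 7.33 CPM with OVA. Erythroid sums (141.01 to 190.46 CPM with TLR7, 124.81 to 765 CPM with OVA), NK cell sums (196.47 to 289.52 CPM with TLR7, 105.36 to 229.95 CPM with OVA), mast cell and basophil, platelet, and CD4 and regulatory T cell sums overlapped. The CD8 T cell sum was 5957.89 to 6752.32 CPM with TLR7 and 5486.26 to 6948.42 CPM with OVA (exact permutation test, p = 0.9143).

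**Figure D5:**
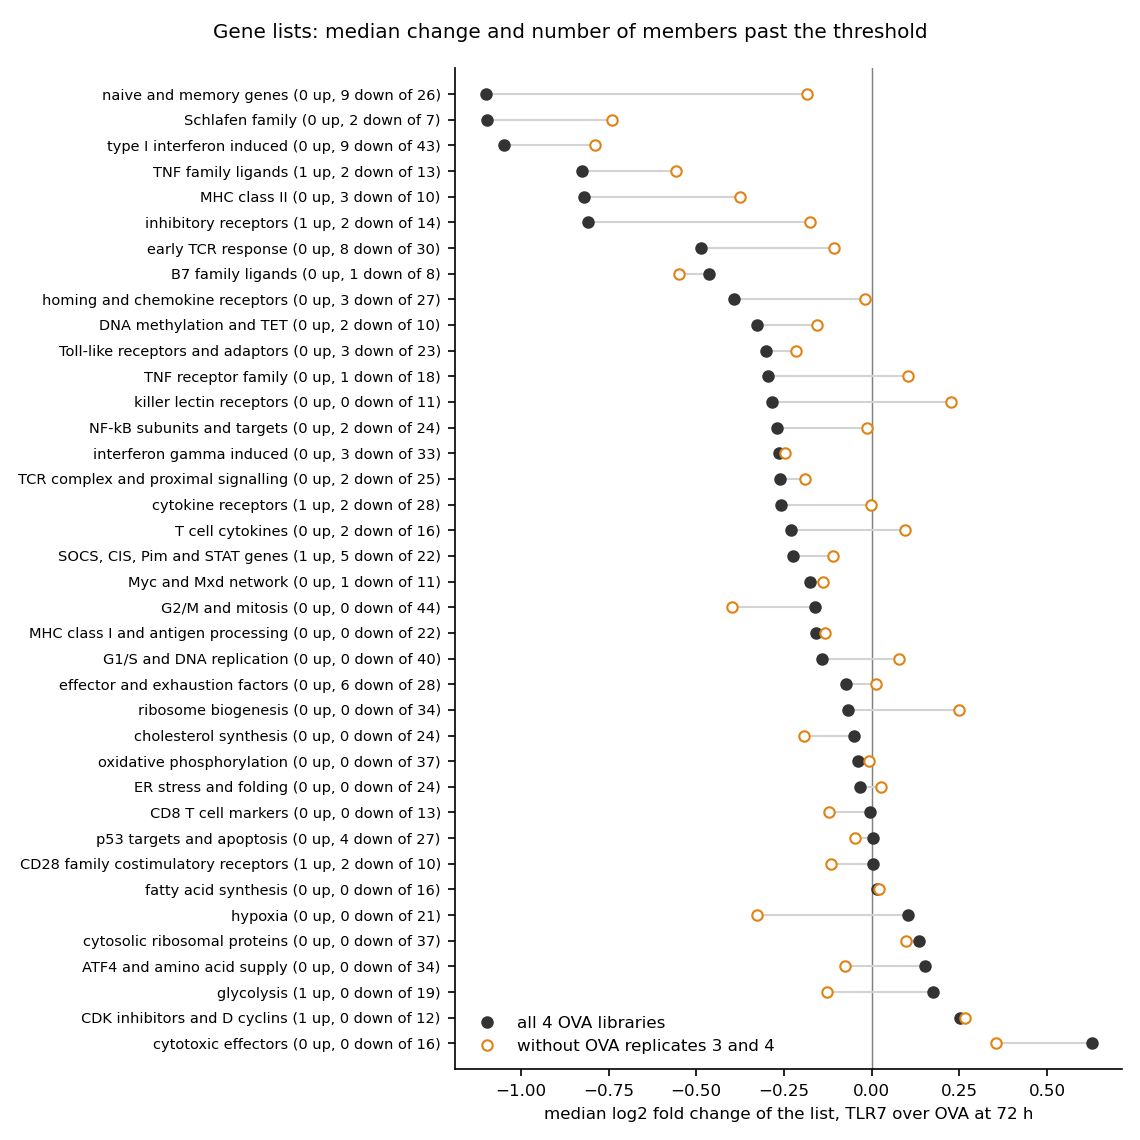
Median log2 fold change (x axis) of 38 gene lists (y axis), TLR7 over OVA at 72 h, with all 4 OVA libraries (filled) and without OVA replicates 3 and 4 (open), and the number of members past the threshold with all libraries. Lists of other cell types and chemokines are not drawn. The naive and memory list lies at -1.10 with all libraries and -0.18 without the 2 replicates, and the type I interferon list at -1.05 and -0.79.

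The 11 genes that passed without OVA replicates 3 and 4 as well were Bcl2l11, Perp, Ifi203, Nrp1, Vav3, Gvin1, Gm4070, Kcnk10, Tbc1d30, Igsf3 and C1ql3. The last 8 lay outside the rule for naming genes and are given because they passed here, after their values were seen. Fitted on only the 8 libraries compared, Bcl2l11, Perp, Nrp1, Vav3, Gvin1 and Kcnk10 missed the threshold (edgeR, adjusted p 0.0578 to 0.0765). Without the shallow libraries none of the 11 passed. Nrp1 (neuropilin-1, a semaphorin and VEGF coreceptor) was at 3.42, 2.81, 10.99 and 4.32 CPM in the TLR7 libraries, against 21.5, 40.4, 24.8 and 51.2 CPM in the OVA libraries. Every TLR7 library was below every OVA library (log2 fold change -2.65, SE 0.40, adjusted p = 0.00246, edgeR). Vav3, a guanine nucleotide exchange factor downstream of antigen receptors, was at 2.18, 4.13, 5.11 and 4.09 CPM in the TLR7 libraries, against 8.58, 24.2, 13.8 and 19.8 CPM in the OVA libraries, likewise without overlap (log2 fold change -2.08, SE 0.29, adjusted p = 0.00166). Gvin1, an interferon-inducible very large GTPase gene, was at 54.5, 64.05, 62.2 and 64.5 CPM in the TLR7 libraries and 119, 238, 103 and 178 CPM in the OVA libraries (log2 fold change -1.38, SE 0.26, adjusted p = 0.00579). Gm4070 was at 13.5, 17.6, 17.6 and 18.8 CPM in the TLR7 libraries and 53.4, 136, 60.8 and 97.1 CPM in the OVA libraries. Kcnk10, Tbc1d30, Igsf3 and C1ql3 were at 1.26 CPM or less in every TLR7 library.

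Set against the TLR2 agonist at 72 h, TLR7 libraries differed in 699 genes (4.8%; edgeR), or in 1 or fewer without TLR7 replicate 1, 2 or 4 and 1190 without OVA replicate 4, a library outside the contrast that enters the shared estimate of spread. Tnfsf8 was lower with TLR7 than with TLR2 (-2.27, adjusted p = 0.0133) and Lta higher (1.42, adjusted p = 0.0399). For Pdcd1 the TLR2 libraries held 104, 67.5, 62.7 and 60.03 CPM (-0.89, adjusted p = 0.177 for TLR7 over TLR2). For Il2ra they held 1053, 1671, 1279 and 1385 CPM (0.57, adjusted p = 0.198). Of the TLR2 libraries, replicates 1, 3 and 4 lay between the times on the first principal component, and without the 8 such libraries of the series no gene passed in this contrast (0 with edgeR, 1317 at an unadjusted p under 0.05), while the contrast of TLR7 with OVA gave 258 calls. TLR2 over OVA at 72 h gave 0 calls with edgeR, with 1693 genes at an unadjusted p under 0.05.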

How the data were processed

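The authors deposited 1 table of expected counts per library, with 48526 genes and no rows without a gene. Per the submitters' processing notes, STAR, RSEM and edgeR were used on GRCm38, with no versions stated, and no source used here states the strand setting of the counting. Of the deposited values above 0, 28.7% were not whole, and the expected counts were rounded to whole numbers before testing. Library totals were 10506711 to 27064067 counts over all 24 libraries, and no pair of libraries held identical values.

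Genes with a minimum count of 10 and total of 15 by filterByExpr (14560) were fitted in edgeR 4.0.16 (R 4.3.3, limma 3.58.1) with TMM scaling, 1 term per group over all 24 libraries, 18 residual degrees of freedom and quasi-likelihood F tests. P-values were adjusted by Benjamini-Hochberg over all genes tested, with a threshold of 0.05. CPM used TMM-scaled library sizes, and log2 fold changes are TLR7 over OVA as fitted, with the default prior count of edgeR. A prior count of 2 entered only the log CPM used for the principal component and the correlations. Fold changes of genes near 0 CPM in 1 group can therefore be very large. The SE printed with a log2 fold change is its absolute value divided by the square root of the F statistic. It was derived from the test and is not a standard error that edgeR reports. Contrasts were TLR7 against OVA at 72 h, the 72 h effect minus the 24 h effect, TLR7 against TLR2 at 72 h, TLR2 against OVA at 72 h and TLR7 against OVA at 24 h. Marker sums were compared by exact permutation. Alternatives were other scalings, filters, DESeq2 1.42.0, a replicate block and leaving out libraries.

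The comparison and the 50 gene lists were chosen with earlier results of these data known. Genes named are Pdcd1, up to 15 rises and 15 falls by size among genes past the threshold without overlap and with a mean of 5 CPM or more in either group, and up to 4 members past the threshold with the smallest p per list, 93 in all; predicted genes and TCR or immunoglobulin segments were not named by size, and further list members are given by value, and some genes of the lists are not reported here. Gene coordinates are from GENCODE M21 (GRCm38), matched for 48144 IDs, and promoters from RefSeq (GRCm38.p6). Tables were made with pandas 2.3.3, tests with scipy 1.17.1 and figures with matplotlib 3.10.9.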

Additional observations from a re-analysis of the deposited data

Results flagged for a closer look

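Of 208 groups of 4 libraries examined for the named genes and marker sums, 41 held 1 library far from the other 3. The gap there exceeded the 95% critical value of Dixon's test, which gives about 1 in 20 for independent, normal values. CPM values are skewed, and the groups share the same 8 libraries, so the 41 do not measure an excess. In each the library apart stood above the others. TLR7 replicate 1 stood above the other 3 libraries of its group in Ifi44 (1.14 CPM) and Mx1 (2.28 CPM). TLR7 replicate 3 stood above the other 3 libraries of its group in Bcl2l11 (48.7 CPM), Bcl6 (4.75 CPM), Btg2 (30.2 CPM), Ccr7 (615 CPM), H2-Eb1 (5.87 CPM), Igfbp7 (1.70 CPM), Lad1 (6.82 CPM), Ms4a1 (0.0448 CPM), Npas4 (1.12 CPM), Sesn1 (27.5 CPM), Tbc1d4 (2.65 CPM), Tcf7 (117 CPM), Tnfsf11 (6.46 CPM), Wisp1 (1.35 CPM), Xcl1 (7.62 CPM) and mast cell and basophil markers (54.3 CPM). OVA replicate 1 stood above the other 3 libraries of its group in Gcnt4 (12.2 CPM), Lilrb4a (26.5 CPM), Sox5 (4.25 CPM) and Sytl3 (107 CPM). OVA replicate 2 stood above the other 3 libraries of its group in Gbp10 (82.9 CPM) and Slfn5 (11.8 CPM). OVA replicate 3 stood above the other 3 libraries of its group in Adgre1 (3.05 CPM), Btg2 (165 CPM), Ccl5 (43.6 CPM), Ccr9 (33.0 CPM), Csf1r (17.3 CPM), Il6ra (71.4 CPM), Pydc3 (46.5 CPM), Pydc4 (42.6 CPM), Tcf7 (988 CPM), Tlr12 (7.10 CPM), macrophage and monocyte markers (244 CPM), neutrophil markers (56.5 CPM) and stromal and endothelial markers (135 CPM). OVA replicate 4 stood above the other 3 libraries of its group in Ccl3 (235 CPM), Ccl4 (278 CPM), Crabp2 (37.1 CPM) and Xcl1 (423 CPM). TLR7 replicates gave 18 of the 41, OVA replicate 3 gave 13, and OVA replicates 1, 2 and 4 gave 4, 2 and 4.

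The TLR7 effect at 72 h differed from that at 24 h in 20 named genes (edgeR, adjusted p under 0.05 for the difference of the log2 fold changes). Apart from Pdcd1, named genes were chosen by passing at 72 h, and the difference holds the same 72 h values. More calls among them, in the direction of the 72 h change, are thus built in. Over all genes tested 118 differed (0.81%), but 0 without OVA replicate 2, 1 without TLR7 replicate 4 and 45 without the libraries between the times. The difference, 72 h minus 24 h, was negative in Bcl2l11 (-1.89), Birc3 (-1.02), Ccr7 (-1.29), Dusp6 (-1.71), Gbp10 (-3.23), Ifi203 (-3.11), Ifi44 (-4.86), Igfbp7 (-6.48), Iigp1 (-3.42), Il6st (-2.10), Mx1 (-3.25), Pydc3 (-4.45), Pydc4 (-3.85), Slfn5 (-2.15), Spp1 (-3.80), Tbc1d4 (-3.73), Tnfsf8 (-3.03), Tox (-2.20) and Wisp1 (-5.49), and positive in Lta (2.45). In the type I interferon genes among them, TLR7 minus OVA was -3.15 at 72 h and 1.72 at 24 h for Ifi44, and -3.68 at 72 h and -0.58 at 24 h for Ifi203. For Igfbp7 the TLR7 libraries at 24 h held 0.0439, 0.0954, 17.3 and 1.26 CPM, so replicate 3 carried the 24 h mean.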

How the results depend on the processing

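Counts for TLR7 against OVA at 72 h are given as total, higher and lower. They were 423, 68 and 355 with RLE size factors, 544, 58 and 486 with library size only, 523, 59 and 464 with robust empirical Bayes, 396, 65 and 331 with the stricter filter, and 392, 28 and 364 with no filter. They came to 923, 228 and 695 with DESeq2, where the share of higher calls was larger. With only the 8 libraries compared they were 29, 1 and 28, without the 8 libraries between the times 258, 17 and 241, without the shallow libraries 0, 0 and 0, and without OVA replicates 3 and 4 together 11, 0 and 11. Leaving out 1 replicate gave 92 to 1370 in all, 3 to 492 higher and 88 to 878 lower. The difference between the times gave 72 genes with RLE size factors, 451 with DESeq2, 45 without the libraries between the times, 0 without the shallow libraries, 7 without OVA replicates 3 and 4, and 0 to 752 without 1 replicate. TLR7 against TLR2 gave 1521 with DESeq2, 0 without the libraries between the times, 0 without the shallow libraries, 1556 without OVA replicates 3 and 4, and 0 to 1190 without 1 replicate. The cause was not tested for any of these shifts.

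With the replicate block, 462 genes were called (79 higher, 383 lower), of which 371 were among the 527, and the other contrasts gave 213 (between the times) and 1212 (TLR7 against TLR2). The deviations of same-numbered libraries correlated at 0.186, -0.003, 0.045 and 0.224, and not every library correlated best with its own number. The labels do not say whether a number marks a shared source, and not every pair exceeded 0.1, so the numbers were not taken as pairs. Under the block 23 of the 93 named genes lost their call and 17 of the 43 type I interferon genes were called lower, against 9 without it.

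Named genes kept their direction and call in 1029 gene and setting pairs, kept the direction but lost the call in 725, and reversed in 2, both without OVA replicates 3 and 4: Ccr9 (log2 fold change 0.41, adjusted p = 0.982) and Igha (0.53, adjusted p = 0.993). That setting left 3 of the 93 calls, and leaving out the shallow libraries left 0. The TLR7 minus OVA difference in the CD8 T cell marker sum, 60.74 CPM with all libraries, ranged from -204.87 to 282.52 CPM when 1 replicate was left out, and was -75.43 CPM without TLR7 replicate 4. Depth limits genes of few counts, since 3 counts equal up to 0.286 CPM in these libraries.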

Other observations

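A set of genes separated OVA replicate 1 from the other OVA libraries while matching the TLR7 libraries. These values, chosen after they were seen, belong to no comparison of the labels. Ctla2a, a cysteine protease inhibitor gene of activated T cells, was at 577, 479, 477 and 612 CPM in the TLR7 libraries, against 459, 54.5, 66.8 and 27.1 CPM in the OVA libraries, with OVA replicate 1 next to the TLR7 libraries and the other 3 far below. With Il10, Il21, Maf, Tnfrsf8 and Gzma it forms a group in which only this OVA library was at the TLR7 level. With all libraries Ctla2a did not pass (1.82, adjusted p = 0.389, edgeR).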
